A study of Mus musculus with 8 samples.

Results

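Interferon response genes were followed in mouse liver by taking 37 genes known to respond to type I interferon and leaving out the Gbp and Irg GTPase families. They were picked by gene symbol. A probe carrying the symbol was found for 36 of the 37, and all 36 were tested among 15346 genes in all. Ifi44 had no probe under its symbol and was not analysed here. Liver RNA came from C3H/HeN mice that were 8 weeks old and carried no labelled mutation. The groups were females given IL1-beta, males given IL1-beta, females given vehicle (female control) and males given vehicle (male control), with 2 arrays in each group and 8 arrays in all. IL1-beta, an inflammatory cytokine, was the recombinant murine protein at 25 µg/kg. It was given intraperitoneally every other day over 2 weeks, and livers were removed 1 h after the last dose. Each 2-colour array held, per the labels, liver in Cy5 and in Cy3 a commercial reference RNA pooled from 11 mouse cell lines.

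Type I interferons are cytokines released by cells that detect foreign or misplaced nucleic acid. They bind a receptor shared by almost all cells, and the receptor's kinases activate a complex with STAT2 and IRF9 that binds a short promoter element, the interferon-stimulated response element. The induced genes encode enzymes and binding proteins that block viruses, sensors that reinforce the response, and proteins of class I antigen presentation. In liver such genes are known to be expressed in hepatocytes as well as in Kupffer cells, the resident macrophages, and in lymphocytes.

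Promoters of 4 genes are shown because they carry the core of this element and belong to the genes with the smallest p between the control arrays. The core searched was TTTC, any 2 bases and TTTC again, on either strand. Sequences are those of RefSeq (GRCm38.p6), 250 bases before to 50 bases after the gene start, 5′ to 3′ on the gene's strand, with the matched letters in capitals. Oas1a lies on chr5:120907476-120907775 (minus strand), Rsad2 on chr12:26456403-26456702 (minus strand), Ifit3 on chr19:34583279-34583578 (plus strand) and Ifit1 on chr19:34640639-34640938 (plus strand).
Oas1a: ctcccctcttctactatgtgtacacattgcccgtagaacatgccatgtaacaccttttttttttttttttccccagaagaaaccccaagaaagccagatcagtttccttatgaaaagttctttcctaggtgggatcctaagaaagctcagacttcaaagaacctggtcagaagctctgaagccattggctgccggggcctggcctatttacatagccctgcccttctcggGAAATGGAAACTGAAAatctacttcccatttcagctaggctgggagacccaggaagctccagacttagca
Rsad2: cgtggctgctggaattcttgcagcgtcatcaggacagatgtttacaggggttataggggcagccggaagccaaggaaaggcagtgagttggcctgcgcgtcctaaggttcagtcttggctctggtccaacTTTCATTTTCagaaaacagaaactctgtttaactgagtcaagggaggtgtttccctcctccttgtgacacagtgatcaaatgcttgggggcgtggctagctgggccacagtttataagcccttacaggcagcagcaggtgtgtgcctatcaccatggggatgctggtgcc
Ifit3: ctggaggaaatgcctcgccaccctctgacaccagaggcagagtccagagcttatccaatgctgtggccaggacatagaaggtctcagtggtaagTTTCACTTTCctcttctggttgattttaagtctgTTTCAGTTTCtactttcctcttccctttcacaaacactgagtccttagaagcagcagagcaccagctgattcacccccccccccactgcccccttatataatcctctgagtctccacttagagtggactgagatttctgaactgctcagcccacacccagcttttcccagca
Ifit1: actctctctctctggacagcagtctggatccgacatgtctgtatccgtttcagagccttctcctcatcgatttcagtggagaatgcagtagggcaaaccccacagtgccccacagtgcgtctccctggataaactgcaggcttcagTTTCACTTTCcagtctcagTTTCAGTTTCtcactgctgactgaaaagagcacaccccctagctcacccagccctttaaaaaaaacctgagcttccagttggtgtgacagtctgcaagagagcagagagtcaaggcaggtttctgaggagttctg
Ifit1 and Ifit3 each had 2 separate matches, beginning 104 and 85 bases before the start in Ifit1 and 156 and 122 bases before it in Ifit3. Oas1a had 2 overlapping matches on the opposite strand, and Rsad2 had 1 match, 120 bases before the start. A window was available for 29 of the 37 genes, and 13 of the 29 (44.8%) held the core, against 1079 of 27025 genes with a window (3.99%). The core was present in 4 of 13 genes that passed the test between the control arrays described below and in 9 of 15 that did not. The element TTCNNNGAA, bound by STAT dimers, was found on either strand in 10 of the 29 genes (34.5%) and in 9.55% of genes with a window. These matches are letters within the windows and were not shown to be bound.

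Values below are log2 ratios of the 2 channels. The base of the deposited logarithm was not stated and was taken as log10, and on that reading a difference of 1 is a change of 2-fold. The 4 IL1-beta arrays had a liver profile over the cell-line pool. Medians of 11 hepatocyte genes lay between 5.78 and 6.08 there, and medians of 19 cell cycle genes between -4.25 and -3.62. On the 4 control arrays the hepatocyte medians lay between -0.29 and 0.30. Female and male control arrays mirrored each other, with r of -0.722 and -0.592 between arrays of the same number across the 15346 genes. Between female and male control arrays of different number r was -0.519 and -0.478. Arrays with the same control label had r of 0.628 (female) and 0.613 (male). Among the IL1-beta arrays r was 0.942 to 0.973. Xist, the RNA that coats the inactive X chromosome of females, was 2.11 and 1.52 in IL1-beta females, against -4.32 and -4.36 in IL1-beta males. Its ratios were -4.94 and -4.57 where the label is female control, against 5.40 and 5.78 where it is male control. The Y chromosome genes also read opposite to the labels there. On arrays labelled female control Eif2s3y read 10.0 and 10.8, Uty 5.34 and 4.85, and Kdm5d 4.98 and 5.25. On those labelled male control they read -9.17 and -10.6, -5.64 and -5.96, and -4.52 and -4.72. The sign of the ratio on the control arrays is therefore not settled, and "the arrays labelled female control" and "the arrays labelled male control" are used below. Differences between them are given as labelled (female minus male) and turned in sign and divided by 2, which is called the turned difference. The division by 2 is a scaling for 2 arrays that hold 1 contrast in opposite signs, and whether same-number arrays do so was not tested. A positive turned difference lies on the side of Xist. Errors after ± are standard errors of the contrast (n = 2 arrays per group), and p-values are from limma, adjusted over all genes. The labels call the arrays biological replicates without saying how these were taken, and each p-value is set against the spread of such arrays only.

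The clearest pattern among the interferon response genes was between the control arrays. Of the 36 genes, 17 passed the test (adjusted p under 0.05), and all 17 read lower on the arrays labelled female control and higher on those labelled male control, the side of Xist. None of the 36 passed in the opposite direction. Over all genes 21.4% passed, 12.1% in the direction of these 17 and 9.3% in the other. The median turned difference was 0.41 over the 36 genes and -0.018 over all genes. The 17 had turned differences between 0.32 and 1.47, which is 1.25-fold to 2.77-fold. Groups of arrays did not overlap, with the arrays labelled male control higher, for 28 of the 36 (77.8%), against 32.2% of all genes. The arrays labelled female control were higher without overlap for 1, Ifi35 (2.78%), against 35.3% of all genes, and 7 genes overlapped. Mirrored same-number arrays would give such separation for any gene off the centre, so these arrays may not be separate observations. In a further form, the array labelled female control was turned in sign and averaged with the same-number array labelled male control. Each pair then gave 1 turned difference, so that the control arrays counted as 2 replicates. Below, "same-number arrays averaged" refers to this form. Of the 36 genes, 10 passed in it, against 7.08% of all genes (4.75% in the direction of the 10). All 10 were among the 17. Liver was measured as a whole, so fewer cells of a type and less RNA per cell cannot be told apart in any of these values.

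**Figure D1:**
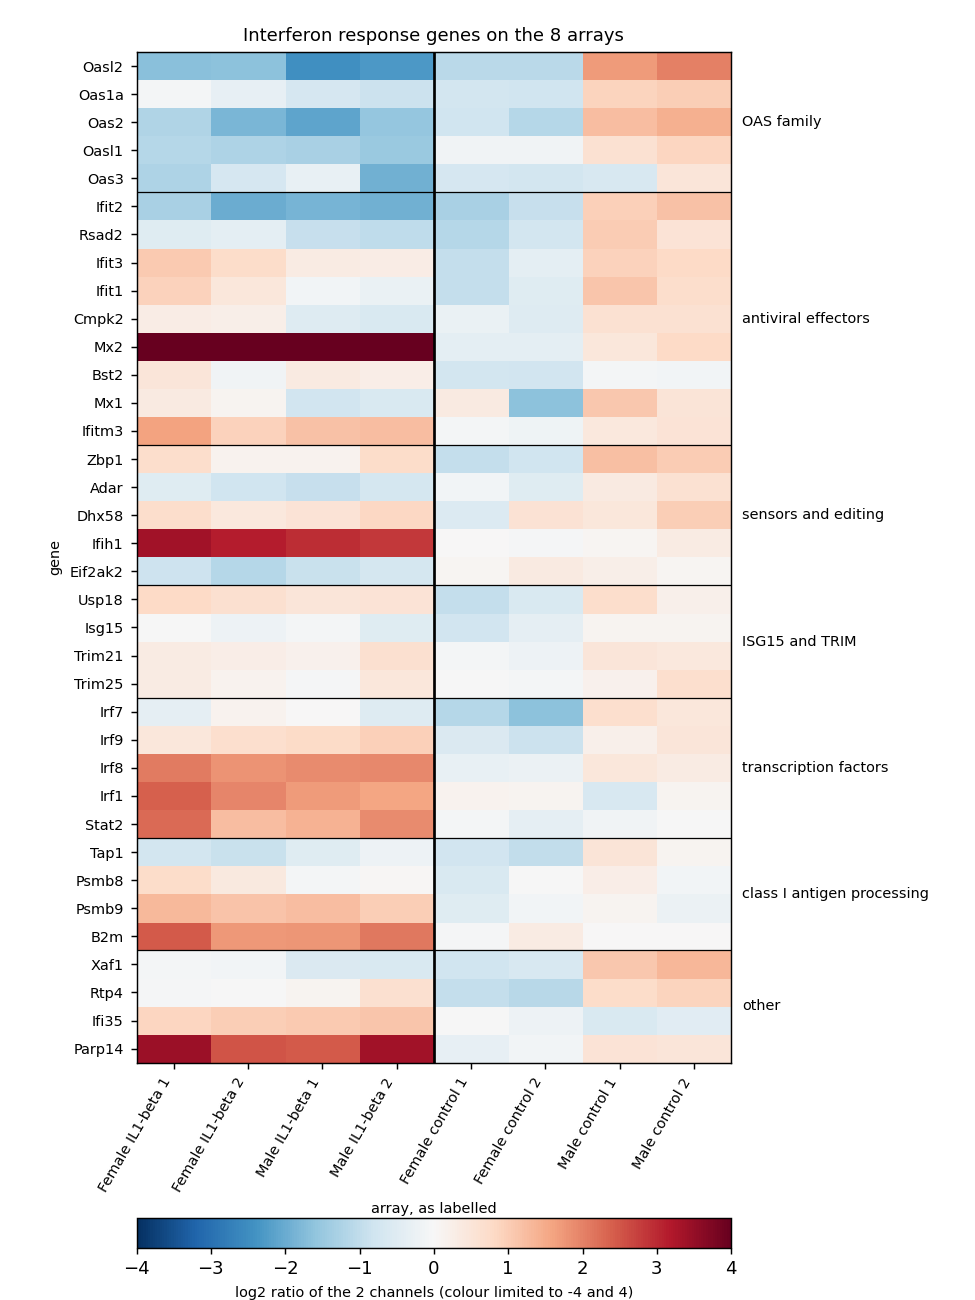
Log2 ratio of each of the 36 interferon response genes (rows, grouped by role) on the 8 arrays (columns, as labelled), with colour limited to -4 and 4. The arrays labelled female control are mostly below 0 and those labelled male control mostly above it, while Mx2, Ifih1 and Parp14 read above 2 on all 4 IL1-beta arrays.

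The 2′-5′ oligoadenylate synthetase family senses double-stranded RNA, and its active enzymes make the messenger that activates RNase L. Of its 5 genes, 4 passed between the control arrays, against 21.4% of all genes. Oasl2, an OAS-like protein with ubiquitin-like domains, had the smallest p among the 36 genes. It read -1.08 and -1.08 on arrays labelled female control, against 1.69 and 2.03 on those labelled male control. The difference as labelled was -2.94 ± 0.19 (adjusted p = 0.000268), and the turned difference was 1.47 ± 0.096, or 2.77-fold. All 4 arrays were on their group's side of 0, which mirrored arrays would also give for a gene off 0. The test was also passed with same-number arrays averaged (adjusted p = 0.00443). Under IL1-beta Oasl2 read -1.67 and -1.64 in females, against -2.45 and -2.30 in males. The 2 female arrays were above both male arrays, and the difference of 0.72 ± 0.19 did not pass (adjusted p = 0.338).

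Oas1a, a catalytically active synthetase, read -0.72 and -0.81 on arrays labelled female control, against 0.90 and 0.99 on those labelled male control, a difference as labelled of -1.71 ± 0.19 and a turned difference of 0.86 ± 0.093 (adjusted p = 0.00189). Its IL1-beta arrays read -0.094 and -0.34 in females, against -0.66 and -0.84 in males, and the difference of 0.54 ± 0.19 did not pass (adjusted p = 0.466). Females were higher on both arrays. For Oas2, which makes longer oligoadenylates, the arrays labelled female control read -0.79 and -1.15, against 1.25 and 1.43 on those labelled male control (difference as labelled -2.31 ± 0.30, turned 1.15 ± 0.15, adjusted p = 0.00374). Its female IL1-beta arrays at -1.20 and -1.84 overlapped the male ones at -2.11 and -1.53. Oasl1, known in mice to repress translation of Irf7, read -0.13 and -0.14 on arrays labelled female control, against 0.62 and 0.87 on those labelled male control (difference as labelled -0.88 ± 0.19, turned 0.44 ± 0.093, adjusted p = 0.0187). With same-number arrays averaged, Oas1a and Oas2 still passed (adjusted p = 0.0237 and 0.0368) and Oasl1 did not (0.106). Under IL1-beta Oasl1 read -1.15 and -1.24 in females, against -1.31 and -1.49 in males. The fifth gene, Oas3, did not pass (difference as labelled -0.63 ± 0.58, turned 0.32 ± 0.29), and its 2 probes had opposite signs on the control arrays.

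Among 9 genes of antiviral effectors, 5 passed between the control arrays, against 21.4% of all genes, and all 9 had a positive turned difference. The IFIT proteins bind viral RNA and restrain its translation. Ifit2 read -1.30 and -0.91 on arrays labelled female control, against 0.94 and 1.18 on those labelled male control (difference as labelled -2.17 ± 0.28, turned 1.08 ± 0.14, adjusted p = 0.00342). Ifit3, whose protein joins IFIT complexes, read -0.94 and -0.40 on arrays labelled female control, against 0.92 and 0.80 on those labelled male control (difference as labelled -1.53 ± 0.24, turned 0.77 ± 0.12, adjusted p = 0.00663). Ifit1, a protein that recognises RNA lacking the host cap methylation, read -0.95 and -0.47 on arrays labelled female control, against 1.11 and 0.71 on those labelled male control (difference as labelled -1.62 ± 0.27, turned 0.81 ± 0.13, adjusted p = 0.00838). No array of these 3 genes crossed to the other group's side, which mirrored arrays would also give. With same-number arrays averaged, Ifit2 and Ifit3 passed (adjusted p = 0.0282 and 0.0417), and Ifit1 did not (0.0538).

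Rsad2 encodes viperin, an enzyme that makes a chain-terminating nucleotide, and Cmpk2 is its neighbouring nucleotide kinase. Rsad2 read -1.15 and -0.72 on arrays labelled female control, against 1.02 and 0.56 on those labelled male control (difference as labelled -1.72 ± 0.24, turned 0.86 ± 0.12, adjusted p = 0.00457, and 0.0312 with same-number arrays averaged). Cmpk2 read -0.26 and -0.52 on arrays labelled female control, against 0.62 and 0.62 on those labelled male control (difference as labelled -1.01 ± 0.18, turned 0.51 ± 0.090, adjusted p = 0.0108, and 0.0700 with same-number arrays averaged). Both were thus lower on both arrays labelled female control, and Cmpk2 lost its call in the averaged form. The other 4 effectors did not pass. These were Mx1 and Mx2, genes of dynamin-like GTPases, Bst2, a tether of budding virus, and Ifitm3, which blocks fusion in endosomes. Their differences as labelled were -1.44 ± 0.60, -1.02 ± 0.34, -0.65 ± 0.24 and -0.60 ± 0.25, and turned 0.72 ± 0.30, 0.51 ± 0.17, 0.33 ± 0.12 and 0.30 ± 0.13. Mx1 varied most between like arrays, at 0.36 and -1.66 on those labelled female control.

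On the IL1-beta arrays the effectors were spread widely over the pool. Ifit1 read 0.93 and 0.46 in females, against -0.12 and -0.26 in males, and Ifit3 read 1.05 and 0.72 in females, against 0.34 and 0.30 in males. Rsad2 read -0.49 and -0.38 in females, against -0.94 and -1.02 in males. In each of these 3 genes both female arrays were above both male arrays, and no difference passed (adjusted p = 0.387, 0.601 and 0.625). Ifit2 read -1.31 and -1.99 in females, against -1.87 and -1.94 in males, with no separation of the groups. Mx2 was far higher over the pool than the other effectors, at 4.25 and 3.99 in females, against 4.22 and 5.22 in males.

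Of 5 sensors and RNA-editing genes, 1 passed between the control arrays, which is near the share of all genes (21.4%). Zbp1, a sensor of Z-form nucleic acid that triggers cell death, read -0.96 and -0.81 on arrays labelled female control, against 1.21 and 1.01 on those labelled male control. Its difference as labelled was -1.99 ± 0.28 and its turned difference 1.00 ± 0.14 (adjusted p = 0.00467, and 0.0442 with same-number arrays averaged). Under IL1-beta Zbp1 read 0.69 and 0.14 in females, against 0.15 and 0.73 in males, and the groups overlapped. Adar, which edits adenosine to inosine in double-stranded RNA, read -0.11 and -0.48 on arrays labelled female control, against 0.36 and 0.60 on those labelled male control, and did not pass (adjusted p = 0.0521). On the IL1-beta arrays Adar read -0.48 and -0.79 in females, against -0.93 and -0.70 in males, all below the pool. The RIG-I-like receptor Ifih1 detects long double-stranded RNA, and its relative Dhx58 modulates that detection. Ifih1 read 3.36 and 3.13 in IL1-beta females, against 2.95 and 2.83 in IL1-beta males, the highest levels of this role. It read 0.013 and -0.032 on arrays labelled female control, against 0.067 and 0.33 on those labelled male control, and its 2 probes differed in sign there. Dhx58 read 0.72 and 0.43 in IL1-beta females, against 0.54 and 0.84 in IL1-beta males. Its values were -0.56 and 0.59 on arrays labelled female control, against 0.44 and 0.98 on those labelled male control, and neither difference separated the arrays. Eif2ak2, the kinase that halts translation on sensing double-stranded RNA, had a difference as labelled of 0.047 ± 0.21 and a turned difference of -0.024 ± 0.10.

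Of 4 genes of the ISG15 system and TRIM ligases, 1 passed, which is near the share of all genes (21.4%). All 4 had positive turned differences. Usp18 removes ISG15 from proteins and also dampens signalling at the type I interferon receptor. It read -0.94 and -0.61 on arrays labelled female control, against 0.72 and 0.20 on those labelled male control (difference as labelled -1.23 ± 0.24, turned 0.62 ± 0.12, adjusted p = 0.0136, and 0.068 with same-number arrays averaged). Isg15, the ubiquitin-like modifier itself, read -0.75 and -0.36 on arrays labelled female control, against 0.10 and 0.10 on those labelled male control (adjusted p = 0.0869). The cytosolic antibody receptor Trim21 read -0.063 and -0.20 on arrays labelled female control, against 0.49 and 0.41 on those labelled male control (adjusted p = 0.0967). Trim25, a ligase acting on RIG-I, read -0.0061 and -0.072 on arrays labelled female control, against 0.16 and 0.66 on those labelled male control (adjusted p = 0.249). The arrays labelled female control lay below the others in all 4 genes, and the gap passed the test in Usp18 only. Under IL1-beta, Usp18 read 0.79 and 0.64 in females, against 0.49 and 0.53 in males. Isg15 read -0.0068 and -0.19 in females, against -0.063 and -0.48 in males. Trim21 read 0.32 and 0.27 in females, against 0.17 and 0.64 in males. In Usp18 the female arrays lay above the male ones by a small margin, and in Isg15 and Trim21 the groups overlapped. Trim25 read 0.34 and 0.14 in females, against -0.046 and 0.46 in males, also overlapping.

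Transcription factors of the response gave 3 passing genes of 5, against 21.4% of all genes. Irf7, which amplifies interferon production, read -1.13 and -1.64 on arrays labelled female control, against 0.66 and 0.47 on those labelled male control (difference as labelled -1.95 ± 0.29, turned 0.97 ± 0.15, adjusted p = 0.00604, and 0.0403 with same-number arrays averaged). Irf9, the DNA-binding partner of STAT2, read -0.58 and -0.85 on arrays labelled female control, against 0.22 and 0.49 on those labelled male control (difference as labelled -1.07 ± 0.21, turned 0.53 ± 0.10, adjusted p = 0.0142). Irf8, a factor of macrophages and dendritic cells, read -0.28 and -0.23 on arrays labelled female control, against 0.45 and 0.34 on those labelled male control (difference as labelled -0.65 ± 0.18, turned 0.32 ± 0.091, adjusted p = 0.0466). Irf8 was the gene of the 17 nearest to the threshold, and neither Irf8 nor Irf9 passed with same-number arrays averaged (adjusted p = 0.21 and 0.0851). Irf1, an activator also induced by interferon-gamma and NF-kB, read 0.14 and 0.097 on arrays labelled female control, against -0.66 and 0.11 on those labelled male control (adjusted p = 0.37). Its 3 probes gave turned differences of 0.62, 0.36 and -1.57, so the mean of Irf1 joins probes that disagree. Stat2, with a difference as labelled of -0.13 ± 0.36 and a turned difference of 0.064 ± 0.18, did not pass.

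On the IL1-beta arrays Irf1 read 2.41 and 1.95 in females, against 1.70 and 1.57 in males, and Irf8 read 2.07 and 1.80 in females, against 1.88 and 1.92 in males. Irf7 read -0.36 and 0.14 in females, against 0.016 and -0.50 in males. Irf1 and Irf8 thus lay above the pool on all 4 arrays, and Irf7 near it. Irf9 read 0.47 and 0.67 in females, against 0.76 and 0.95 in males, with both male arrays higher. The sex differences of Irf1 (0.54 ± 0.29) and Irf9 (-0.29 ± 0.21) did not pass (adjusted p = 0.75 and 0.841). Irf1's probes also disagreed here, with female minus male values of 0.80, 1.46 and -0.63.

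Genes of class I antigen processing gave 1 passing gene of 4, which is near the share of all genes (21.4%). Tap1, a subunit of the peptide transporter into the endoplasmic reticulum, read -0.76 and -0.99 on arrays labelled female control, against 0.50 and 0.11 on those labelled male control (difference as labelled -1.18 ± 0.22, turned 0.59 ± 0.11, adjusted p = 0.0128, and 0.0600 with same-number arrays averaged). Under IL1-beta Tap1 read -0.74 and -0.88 in females, against -0.47 and -0.20 in males. Male arrays were the higher ones there (difference -0.47 ± 0.22, adjusted p = 0.665). The immunoproteasome subunit Psmb8 read -0.61 and -0.0083 on arrays labelled female control, against 0.25 and -0.095 on those labelled male control. Psmb9, another immunoproteasome subunit, read -0.48 and -0.099 on arrays labelled female control, against 0.10 and -0.24 on those labelled male control. For B2m, the light chain of class I molecules, arrays labelled female control read -0.059 and 0.31, against 0.011 and 0.0087 on those labelled male control. None of these 3 separated the groups (adjusted p = 0.331, 0.522 and 0.791). On the IL1-beta arrays Psmb8 read 0.72 and 0.38 in females, against -0.088 and 0.038 in males. Psmb9 read 1.31 and 1.14 in females, against 1.22 and 0.97 in males, and B2m 2.44 and 1.73 in females, against 1.78 and 2.12 in males. B2m had 12 probes with turned differences from -0.13 to 0.15, most of them negative. Tap1 and Psmb9 lie head to head on chromosome 17, and their promoter windows overlap on opposite strands, yet Tap1 passed and Psmb9 did not. The difference between them was not tested.

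The remaining 4 genes tested have other roles, and 2 of them passed, against 21.4% of all genes. Xaf1, a pro-apoptotic antagonist of XIAP, read -0.80 and -0.65 on arrays labelled female control, against 1.08 and 1.34 on those labelled male control (difference as labelled -1.94 ± 0.18, turned 0.97 ± 0.091, adjusted p = 0.00115, and 0.0127 with same-number arrays averaged). Rtp4, a chaperone-like protein of receptor trafficking, read -0.95 and -1.12 on arrays labelled female control, against 0.73 and 0.90 on those labelled male control (difference as labelled -1.86 ± 0.22, turned 0.93 ± 0.11, adjusted p = 0.00281, and 0.0299 with same-number arrays averaged). Both passed in either form of the test. Ifi35, an interferon-induced leucine zipper protein, read -0.019 and -0.22 on arrays labelled female control, against -0.60 and -0.47 on those labelled male control (adjusted p = 0.142). Parp14, a mono-ADP-ribosyltransferase, read -0.34 and -0.098 on arrays labelled female control, against 0.56 and 0.50 on those labelled male control (adjusted p = 0.209). Neither Ifi35 nor Parp14 passed. Under IL1-beta Xaf1 read -0.071 and -0.11 in females, against -0.56 and -0.62 in males, while Rtp4 read -0.037 and -0.012 in females, against 0.12 and 0.63 in males. These 2 genes separated the sexes in opposite directions, and neither difference passed (adjusted p = 0.498 and 0.766). Ifi35 read 0.87 and 0.98 in females, against 1.05 and 1.11 in males, and Parp14 read 3.41 and 2.50 in females, against 2.47 and 3.36 in males.

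**Figure D2:**
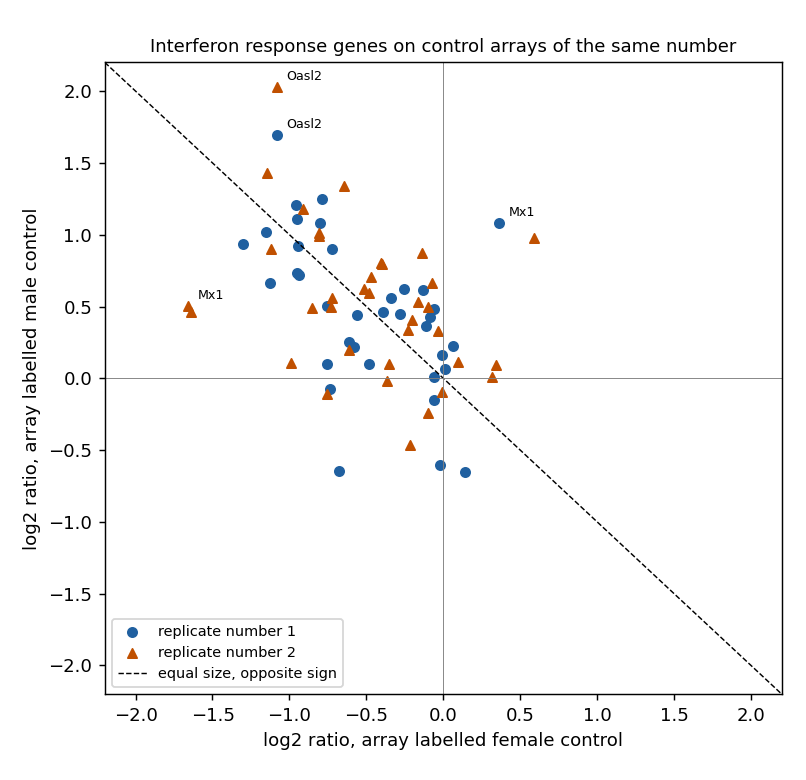
Log2 ratio of the 36 interferon response genes on the array labelled female control (x axis) and on the array labelled male control of the same number (y axis), with replicate number 1 as circles and number 2 as triangles. Most genes lie in the upper left, near the dashed line of equal size and opposite sign, and Mx1 moves between the 2 numbers.

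Across the 36 genes the pattern was alike in both pairs of same-number control arrays. The median turned difference was 0.43 for number 1 and 0.52 for number 2. Across genes, which are not independent replicates, the 2 pairs correlated at r = 0.768 over the 36 genes and 0.675 over all genes. Array medians of the 36 genes were -0.57 and -0.44 on the arrays labelled female control, against 0.47 and 0.50 on those labelled male control. All-gene medians lay between -0.018 and 0.013 on these 4 arrays, so the 36 genes stood off the centre of each array.

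Under IL1-beta the question was whether the sexes differed, and none of the 36 genes passed, against 0.163% of all genes (25 genes). At an unadjusted p under 0.05 there were 6 of the 36 (16.7%), against 8.28% of all genes. Adjusted p-values ran from 0.233 to 0.996. Females were higher in 26 of the 36 (72.2%), against 49.3% of all genes, and the median difference was 0.15, against -0.0057 for all genes. Both female arrays were above both male arrays for 13 of the 36 (36.1%), against 18% of all genes. Both male arrays were above both female arrays for 4, which were Irf9, Tap1, Ifi35 and Rtp4 (11.1%), against 18.8% of all genes. Cmpk2 came nearest to the threshold, at 0.31 and 0.24 in females, against -0.52 and -0.60 in males. Its difference was 0.84 ± 0.18 (adjusted p = 0.233), with no overlap of the arrays. The widest differences were 0.91 ± 0.60 in Mx1 and 0.88 ± 0.27 in Ifit1, and on the male side -0.60 ± 0.34 in Mx2.

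**Figure D3:**
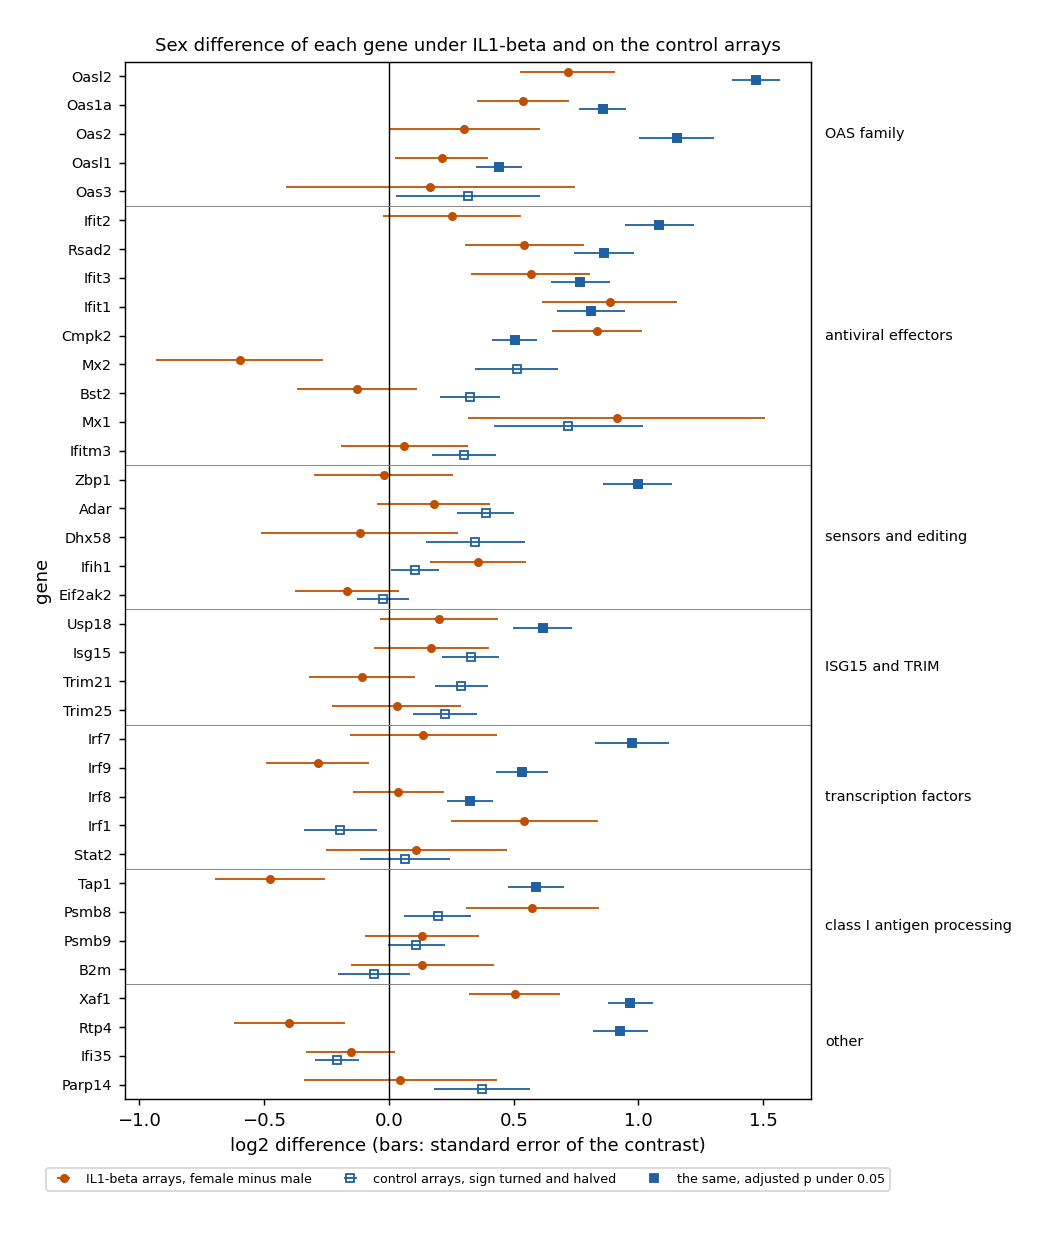
Difference of each of the 36 interferon response genes (rows) on the IL1-beta arrays, female minus male (circles), and turned difference on the control arrays (squares, filled where the adjusted p is under 0.05), in log2, with bars of 1 standard error. All 17 filled squares lie right of 0, and the circles lie on both sides of it.

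Whether the sex difference under IL1-beta departed from that on the control arrays was tested with the turned difference subtracted. None of the 36 genes passed, against 0.209% of all genes (32 genes), and adjusted p-values ran from 0.144 to 0.979. After quantile normalization 3 passed, all with negative values, against 4.09% of all genes (2.24% negative). At an unadjusted p under 0.05 there were 9 of the 36, against 10.3% of all genes. The value was negative in 26 of the 36, with a median of -0.26. It was lowest in Rtp4 (-1.33 ± 0.25, adjusted p = 0.144), followed by Mx2 (-1.11 ± 0.37), Tap1 (-1.06 ± 0.25) and Zbp1 (-1.02 ± 0.31). A smaller sex difference under IL1-beta was therefore not established for any single gene. The sign was the same under IL1-beta and in the turned difference in 26 of the 36 genes (72.2%), against 60.9% of all genes. Those 2 differences use separate arrays and correlated across genes at r = 0.272 over the 36 and 0.439 over all genes. With the control difference taken in its labelled sign instead, 14 of the 36 passed, all higher under IL1-beta, against 14.3% of all genes (8.61% higher). That count was 9 without the array labelled female control 2 (9.04% of all genes) and 9 without the array labelled male control 1 (8.12%). In that sign Xist on the control arrays reads opposite to the sex labels.

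Levels over the cell-line pool can be read on the IL1-beta arrays only and carry no test. The mean of the 4 arrays was above 0 for 21 of the 36 genes (58.3%), against 46.8% of all genes. It was above 1 for 10 (27.8%), against 23.2% of all genes, and below -1 for 5 (13.9%), against 25.1%. The highest means were 4.42 for Mx2, 3.07 for Ifih1 and 2.94 for Parp14. They were followed by 2.02 for B2m, 1.92 for Irf8 and 1.91 for Irf1. The lowest were -2.01 for Oasl2, -1.78 for Ifit2 and -1.67 for Oas2. These 3 were also among the 28 of the 36 genes (77.8%) that read higher without overlap on the arrays labelled male control. Ratios of different genes are not set against each other here as abundances, since each is relative to the pool.

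IL1-beta minus control, as labelled, compares arrays with a liver profile with arrays that lack one. Values and counts are given, and no effect of IL1-beta is read from them. In females 25 of the 36 genes passed (22 higher and 3 lower on the IL1-beta arrays), against 57.2% of all genes (25.8% higher and 31.4% lower). In males 23 passed (10 higher and 13 lower), against 61.5% of all genes (29.4% higher and 32.1% lower). In males the split was 6 higher and 14 lower after quantile normalization, against 41.9% of all genes (22% higher and 19.9% lower). It was 11 and 11 after centring each array on its median, against 61.6% of all genes (31.3% higher and 30.4% lower). That centring moved all-gene values by 0.13 in females and 0.080 in males. Oasl2 illustrates how the mirrored control arrays enter these values, with -0.57 in females and -4.23 in males. Mx2 (4.51 in females and 4.09 in males) and Ifih1 (3.25 in females and 2.69 in males), high over the pool, were higher in both sexes. Their control ratios were small beside their IL1-beta ratios, so these values largely restate the levels over the pool. For most of the 36 genes the control values of the 2 sexes were of opposite sign, and they enter the 2 comparisons with opposite effect.

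Genes upstream of the response were examined as lists. Their counts stand beside 21.4% of all genes passing between the control arrays, 12.1% in the direction of the 17 and 9.3% in the other. Of 18 type I interferon ligands, 6 were tested, and 1 passed between the control arrays in the direction opposite to the 17. This was Ifna1, at 0.37 and 0.75 on the arrays labelled female control, against -0.58 and -0.28 on those labelled male control (adjusted p = 0.0326, and 0.123 with same-number arrays averaged). None of the 6 interferon receptor genes passed, and the 2 with the smallest p were Ifnlr1 (-0.41 ± 0.30 as labelled) and Il10rb (-0.43 ± 0.43). Among 10 JAK-STAT transducers and inhibitors, 1 passed in each direction. Tyk2, a kinase of the type I receptor, was on the side of the 17 (difference as labelled -0.86 ± 0.25, turned 0.43 ± 0.12, adjusted p = 0.0483), and Ptpn6, a phosphatase of blood cells, was on the other (difference as labelled 1.02 ± 0.23, turned -0.51 ± 0.12, adjusted p = 0.0233). Of 14 genes sensing nucleic acid upstream of interferon, 2 passed, the adaptor Mavs (difference as labelled -0.78 ± 0.18, turned 0.39 ± 0.092) and the RNA sensor Ddx58 (as labelled -0.94 ± 0.26, turned 0.47 ± 0.13). With same-number arrays averaged, none of these 5 named passing genes kept its call, and each lost it without at least 1 of the control arrays.

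Ifng, the type II interferon secreted by NK and T cells, was the only gene of the 7 pathway lists that passed between the sexes under IL1-beta. It had 2.42 and 2.53 in females, against 0.23 and 0.46 in males, a difference of 2.12 ± 0.20 (adjusted p = 0.0112). All 10 probes used were higher in females, but they were read on the same 4 arrays and are not replicates of the sex difference. The call was lost after quantile normalization (adjusted p = 0.835), with the probe of highest mean ratio (0.384), with a replicate block (0.0519), when only the IL1-beta arrays entered the model (0.0834), and without any 1 of the 4 IL1-beta arrays (0.0729 to 0.155). Ifng had -0.76 and -0.51 on the arrays labelled female control, against 0.72 and 0.55 on those labelled male control (difference as labelled -1.27 ± 0.20, turned 0.64 ± 0.098, adjusted p = 0.00642, and 0.0507 with same-number arrays averaged). Females, in the reading given by Xist, were thus higher in both settings, and the departure between the settings did not pass (adjusted p = 0.0777).

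Further interferon-stimulated genes that are not among the 37 were also examined on the control arrays. Of 52 tested, 23 passed, all on the side of the 17, against 12.1% of all genes on that side. The median turned difference of the 52 was 0.41. With same-number arrays averaged 11 passed, on the same side, against 4.75% of all genes on that side. The 4 with the smallest p were Ly6c1, a surface antigen of monocytes and endothelium (as labelled -3.998 ± 0.25, turned 2.00 ± 0.12), Ifi205, a cytosolic DNA sensor of the Ifi200 family (as labelled -2.22 ± 0.19, turned 1.11 ± 0.096), Ifit3b (as labelled -2.36 ± 0.24, turned 1.18 ± 0.12) and Oas1f (as labelled -1.94 ± 0.20, turned 0.97 ± 0.10). Ifit3b and Oas1f are close copies of Ifit3 and of the Oas1 genes, so that their probes may share signal with them. None of the 52 passed between the sexes under IL1-beta. Of 17 further class I antigen presentation genes 3 passed on the control arrays, near the share of all genes (21.4%, and 12.1% on that side). These were H2-T24 (as labelled -1.37 ± 0.28, turned 0.68 ± 0.14), H2-T23 (as labelled -0.94 ± 0.20, turned 0.47 ± 0.098) and H2-Q7 (as labelled -0.80 ± 0.20, turned 0.40 ± 0.10). The median turned difference over the list was 0.32. None of the 3 passed with same-number arrays averaged (adjusted p = 0.11, 0.116 and 0.162) or without any 1 control array.

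**Figure D4:**
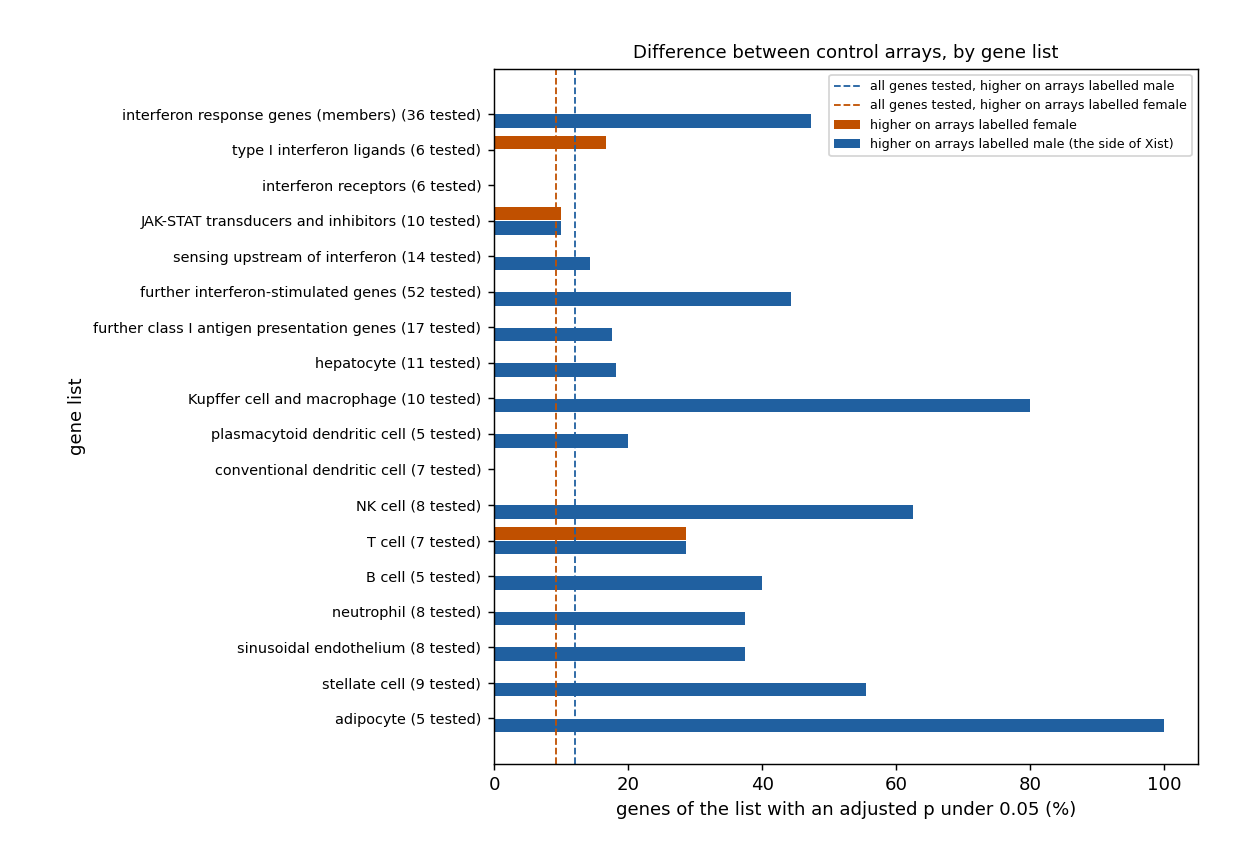
Share of the tested genes of each list (rows) with an adjusted p under 0.05 between the control arrays, in percent, split into those higher on the arrays labelled female control and those higher on the arrays labelled male control. Dashed lines give the shares over all genes tested (9.3% and 12.1%), and Kupffer cell, NK cell, stellate cell and adipocyte markers stand beside the interferon genes on the right.

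Markers of some other cell types moved with the interferon genes on the control arrays. Passing on the side of the 17 were 8 of 10 Kupffer cell and macrophage markers, 5 of 8 NK cell markers, 5 of 9 stellate cell markers and 5 of 5 adipocyte markers. On that side were also 3 of 8 neutrophil, 3 of 8 sinusoidal endothelium, 2 of 5 B cell, 2 of 11 hepatocyte and 1 of 5 plasmacytoid dendritic cell markers, and none of 7 conventional dendritic cell markers. Over all genes 12.1% passed on that side and 9.3% on the other. The median turned difference was 0.20 over the hepatocyte list, 0.039 over the plasmacytoid dendritic cell list and -0.018 over the B cell list. T cell markers passed in both directions, 2 of 7 each. With same-number arrays averaged, fewer passed, all on the side of the 17. These were 6 Kupffer cell, 3 NK cell, 4 stellate cell, 4 adipocyte, 2 neutrophil and 2 sinusoidal endothelium markers and 1 T cell marker, Cd3g. In that form no hepatocyte, B cell or dendritic cell marker of either kind passed, against 7.08% of all genes. The Kupffer list had medians of -0.98 and -0.75 on the arrays labelled female control, against 0.96 and 0.66 on those labelled male control. The NK list had -0.98 and -0.78 on the arrays labelled female control, against 0.62 and 1.16 on those labelled male control. The adipocyte list differed most, at -3.10 and -3.22 on the arrays labelled female control, against 1.08 and 4.19 on those labelled male control. The adipocyte list had unequal turned medians in the pairs of number 1 and number 2, at 1.99 and 3.70. Under IL1-beta none of these cell markers passed between the sexes. The Kupffer list had medians of 4.98 and 5.28 in IL1-beta females, against 5.25 and 4.88 in IL1-beta males, and the NK list 2.58 and 2.81 in females, against 2.10 and 2.01 in males. The part of these cells in the interferon gene differences was not tested.

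The 17 calls depended on single control arrays to a limited extent. Leaving out 1 array at a time left between 12 and 17 of them, and the calls lost at some point were those of Oasl1, Cmpk2, Usp18, Irf8, Irf9 and Tap1. Without the array labelled male control 2, in which the adipocyte list was highest, 13 remained. Of the 36 genes, 22 were read by 1 probe and 14 by several, with 64 probes used and 3 left out for a missing value (1 each of Oas2, Oasl2 and Cmpk2). In 4 genes, B2m, Ifih1, Irf1 and Oas3, probes disagreed in sign on the control arrays, and none of these 4 was among the 17.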

How the data were processed

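Liver RNA was hybridised to 8 Agilent arrays in 2 colours, with 2 arrays in each of 4 groups. The authors deposited 1 log ratio per feature and array, with no base stated, and it was taken as log10, as in Agilent's LogRatio. Agilent Feature Extraction is named per the submitters' processing notes, without a version. How background and dyes were corrected is not given in the sources used here. Channel intensities were not used, and the number of arrays limits the precision. Multiplication by 3.32 gave log2 ratios on that reading. Features at exactly 0 were treated as unmeasured. Of 45018 features, 33653 carried 1 gene symbol, 56 several and 11309 none, by the platform annotation. Those with 1 symbol and a value on all 8 arrays (26218) gave 15346 genes as means of probes.

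For each gene limma 3.58.1 (R 4.3.3) fitted the 4 group means. Variances were moderated by eBayes with 4 residual and 2.88 prior degrees of freedom. Tests were two-sided, adjusted by Benjamini-Hochberg over all genes, with 0.05 as the threshold. Its spread is shared by IL1-beta and control arrays, which differ in profile. The method was tested on simulated data. The members, the 7 pathway lists, the cell marker lists and the tests were chosen with earlier results of these data known. Values on every array are given for up to 4 genes of each role with the smallest p between the control arrays, and from each pathway list up to 4 passing genes, or 2 where none passed. Cmpk2 was named after its values were seen. Promoters printed are of the 4 genes with the smallest p among those with the core.

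Alternatives were array median centring, quantile normalization, exact zeros kept as values, probes measured at least once in every group, eBayes with trend and robust, the probe of highest mean ratio, a replicate block, the compared groups only, averaged same-number control arrays, and leaving out each array. A crossed replicate block was added after the data were examined. Replicate numbers were not shown to pair the arrays, and no block is used in the values reported.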

Additional observations from a re-analysis of the deposited data

Results flagged for a closer look

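The sex difference under IL1-beta was set against that on the control arrays in its labelled sign (limma, adjusted over all genes). The test was passed by 14 of the 36 interferon response genes, all with a higher female minus male value under IL1-beta. Over all genes 14.3% passed, 8.61% with a higher value. The values for the OAS family were 3.66 ± 0.27 in Oasl2, 2.61 ± 0.43 in Oas2, 2.25 ± 0.26 in Oas1a and 1.09 ± 0.26 in Oasl1 (log2, SE). Among antiviral effectors they were 2.51 ± 0.38 in Ifit1, 2.42 ± 0.39 in Ifit2, 2.27 ± 0.34 in Rsad2, 2.10 ± 0.34 in Ifit3 and 1.85 ± 0.26 in Cmpk2. The others were Xaf1 (2.44 ± 0.26), Irf7 (2.09 ± 0.42), Zbp1 (1.97 ± 0.39), Rtp4 (1.46 ± 0.32) and Usp18 (1.44 ± 0.33). Each value holds the control difference in the sign in which Xist reads opposite to the sex labels. With that difference turned in sign and divided by 2, none of the 14 passed. The count of 14 was 9 without female control 2 (9.04% of all genes) and 9 without male control 1 (8.12%).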

How the results depend on the processing

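The count of 17 genes between the control arrays stayed between 15 and 18 under centring, zeros kept, other probe choices, eBayes with trend and robust and a fit of the compared groups. In those settings 13.4% to 21.3% of all genes passed. The count was 10 with same-number control arrays averaged (7.08% of all genes) and 25 after quantile normalization (24 lower and 1 higher as labelled, 44.1% of all genes). Without 1 array the count was 12 to 18 (9.88% to 20.4% of all genes). Under IL1-beta the count was 0 in every alternative run, including each array left out (0 to 0). With the turned difference subtracted it was 3 after quantile normalization (4.09% of all genes) and 0 otherwise (0 to 0 without 1 array). In the labelled sign it was 9 without female control 2, 9 without male control 1 and 9 to 12 over all arrays left out (5.45% to 10.3% of all genes). IL1-beta minus control as labelled gave 20 to 24 in females (47.6% to 55.7% of all genes) and 19 to 22 in males (50.6% to 62%) without 1 array. Over all genes, the control arrays gave 3284 genes, 1087 with same-number arrays averaged and 6764 after quantile normalization, and the turned interaction gave 32, 9 and 627.

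The arrays share only replicate numbers: deviations of same-number arrays correlated at r = -0.43 between female and male control and -0.41 between female and male IL1-beta. With a replicate block the count was 16 on the control arrays (15.9% of all genes), and 16 also with crossed numbers (19.1%). It was 0 under IL1-beta (0.117%), and 11 and 0 in the interactions as labelled (9.01%) and turned (0%). For IL1-beta minus control it was 22 in females (53% of all genes) and 21 in males (57.9%).

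Signs of genes that did not pass turned under some settings, and the cause was not tested. Under IL1-beta Zbp1 became 0.0092 (centring) and 0.0012 (quantile normalization), and Ly6c1 -0.043 (quantile normalization). With the probe of highest mean ratio, Trim25 was -0.19, Irf9 0.040 and H2-T24 -0.18 under IL1-beta, and Ifih1 was 0.092 and Irf1 -0.71 on the control arrays as labelled. Without 1 array, signs under IL1-beta turned within these ranges: B2m -0.22 to 0.49, Oas2 -0.015 to 0.62, Ifit2 -0.091 to 0.60, Trim25 -0.22 to 0.28, Irf8 -0.10 to 0.18, Parp14 -0.41 to 0.50, Zbp1 -0.31 to 0.27, Dhx58 -0.27 to 0.035, Irf7 -0.12 to 0.40, Isg15 -0.037 to 0.38, Trim21 -0.35 to 0.13, Ifna1 -0.22 to 0.28, Ifnlr1 -0.55 to 0.15, Il10rb -0.43 to 0.77, Ddx58 -0.0088 to 0.61, Ly6c1 -0.30 to 0.31 and H2-T24 -0.15 to 0.45. B2m on the control arrays ranged from -0.068 to 0.30. Signal over background is unknown, and 2 arrays per group limit every value.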

Other observations

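The 36 interferon response genes were compared with all genes for how closely same-number control arrays mirror each other. If the 2 arrays of a pair were exact mirror images, the mean of their log2 ratios would be 0 for every gene. The median size of that mean was 0.14 in the pair of number 1 and 0.18 in the pair of number 2 over the 36 genes, against 0.13 and 0.16 over all genes. Mx1 had 0.72 in the pair of number 1, the widest of the 36 there.

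Over the 36 genes the arrays labelled female control correlated with the 4 IL1-beta arrays at r = 0.39 to 0.46, and the arrays labelled male control at r = -0.50 to -0.35. Over all genes these correlations were 0.064 to 0.17 and -0.18 to -0.055. They are across genes, which are not independent replicates, and all arrays share a platform. Oasl2, Ifit2 and Oas2, the 3 genes lowest over the pool under IL1-beta, were also lower on the arrays labelled female control. So were most of the 36, with 28 lower there without overlap.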
